A study of Mus musculus with 12 samples.

Results

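Fibronectin (Fn1), tenascin C (Tnc) and 5 matricellular proteins (Thbs1, Thbs2, Spp1, Sparc and Postn) were followed over 4 sources of mouse brain endothelial RNA. They are 7 of the 15204 genes with a named probe set. All 7 were found, each with 1 probe set, and no filter on low values was applied. They were chosen by their log2 levels over the 4 sources in these same arrays, so those levels and their differences are given as a description. Calls of these genes by limma, printed further on, are for scale only and test nothing about them. Gene expression was measured on 12 arrays, 3 per source. The b.End5 arrays came from an endothelioma line, that is, mouse brain endothelium transformed with an oncogene, so they stand for a single line. Co-cultured cells were primary mouse brain microvascular endothelial cells grown for 5 days on transwell filters, with glia from cultures 3 weeks old in the lower well and no contact between the layers. Single-cultured cells were the same kind of cells grown for 5 days on filters without glia. Non-cultured cells were isolated and not grown, and were further purified on magnetic beads against the endothelial surface protein PECAM1. The labels mention the beads for the non-cultured cells alone, so bead sorting and the absence of culture cannot be told apart in any comparison with that group. The labels give no mouse strain, age or sex. The labels do not say whether replicates were separate preparations, so errors and p-values measure the spread between these arrays, which may be technical, and 3 arrays per source limit the precision.

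Matricellular proteins are secreted into the extracellular matrix and change how cells attach to it, rather than carrying load as collagens do. Fibronectin forms a fibrillar scaffold that cells assemble through the integrin of the alpha5 and beta1 subunits. Tenascin C, osteopontin (the product of Spp1) and periostin (Postn) bind other integrins and are known from wounds and tissue remodelling. The thrombospondins (Thbs1 and Thbs2) inhibit angiogenesis through the receptor CD36, and thrombospondin 1 also activates latent TGF-beta. SPARC binds collagen and is abundant in growing vessels.

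All values are the deposited log2 levels, so a difference of 1 is 2-fold. Array medians lay between 7.21 and 7.40. The level of probe sets with no target in mouse RNA, the 95th percentile of 27 bacterial controls, lay between 4.01 and 4.46. For the labelled cell type, 12 of 12 endothelial markers, the junction genes Pecam1, Cdh5 and Cldn5 among them, were above that level on every array. B.End5 replicate 2 stood apart, with 1106 and 1193 genes over 1 log2 unit away from replicates 1 and 3, against 42 genes between those arrays. Such genes numbered 316 to 645 between pairs of co-cultured arrays, 111 to 421 between single-cultured arrays and 92 to 151 between non-cultured arrays. In this bulk RNA, fewer cells of a type and less RNA per cell cannot be told apart.

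**Figure D1:**
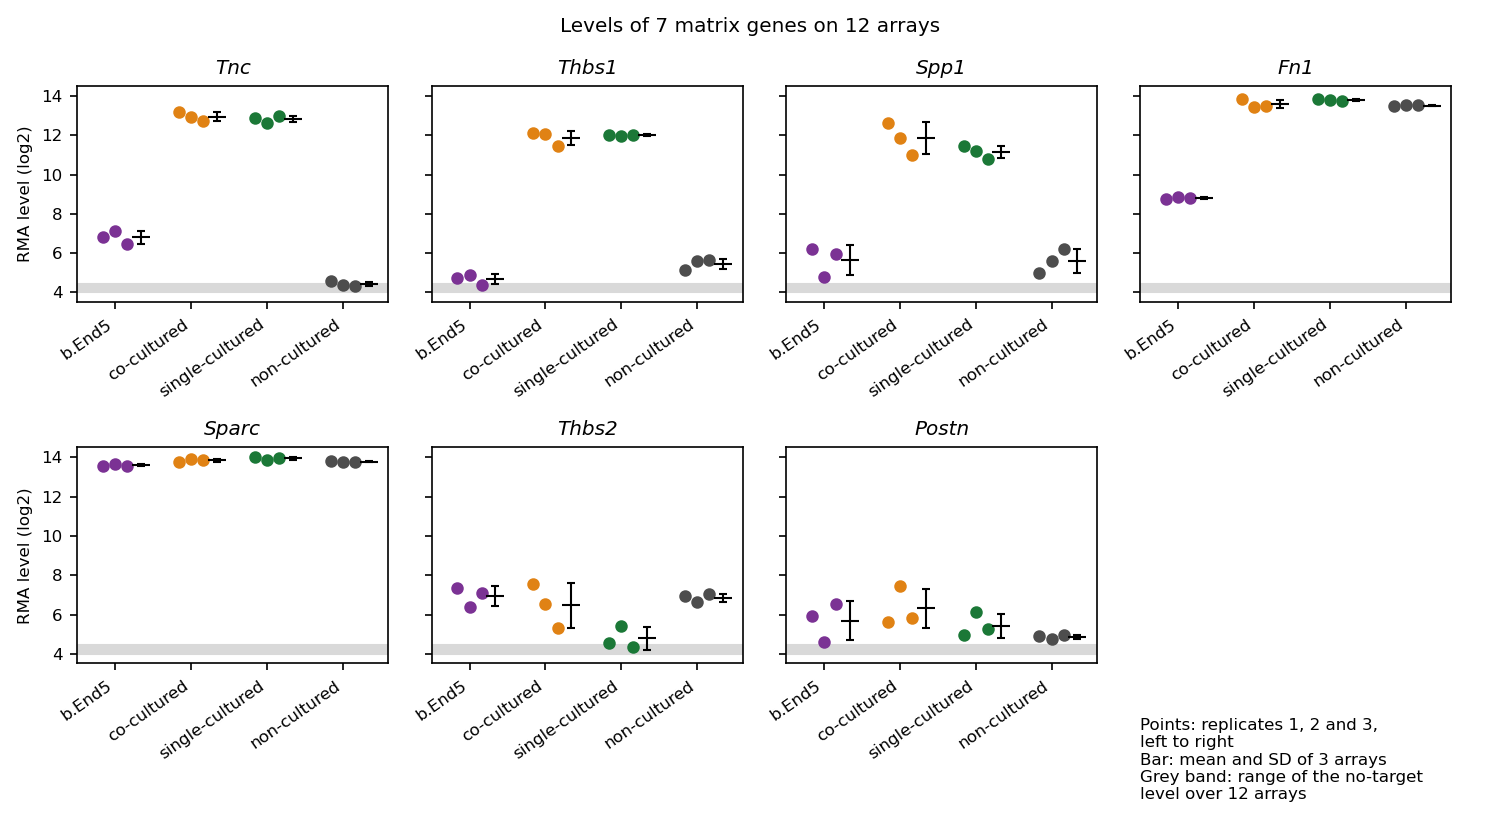
Deposited log2 level of each of the 7 genes on 12 arrays, by source. Points are replicates 1 to 3 from left to right, the bar is the mean with SD (n = 3), and the grey band is the range of the no-target level (4.01 to 4.46). Tnc, Thbs1 and Spp1 lie at 10.81 or above on all 6 arrays of cultured primary cells, Fn1 is low in b.End5 alone, and Sparc stays between 13.55 and 14.00.

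Tnc had the widest range of the 7 genes, 8.82 log2 units over the 12 arrays. Replicates 1, 2 and 3 of b.End5 had 6.81, 7.13 and 6.49, and those of co-cultured cells had 13.17, 12.92 and 12.72. Replicates 1, 2 and 3 of single-cultured cells had 12.86, 12.63 and 12.97, against 4.57, 4.40 and 4.35 in non-cultured cells. Cultured primary cells of both kinds were thus far above the other sources and overlapped each other, b.End5 stood in between, and non-cultured cells were lowest. The mean was 8.50 higher in co-cultured (SE 0.18) and 8.38 higher in single-cultured than in non-cultured cells (SE 0.18), about 361-fold and 333-fold. The b.End5 mean was 2.37 above that of non-cultured cells (SE 0.18) and 6.01 below that of single-cultured cells. The non-cultured arrays were above the 95th percentile of the bacterial controls but under the highest of them on 3 of 3 arrays. Measured against that stricter level, Tnc was at least 296-fold higher in co-cultured, at least 273-fold higher in single-cultured and at least 4.24-fold higher in b.End5 than in non-cultured cells.

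Spp1 encodes osteopontin, a cytokine-like ligand of alpha v integrins and of CD44 that macrophages make in quantity. Its levels were 6.20, 4.79 and 5.96 in b.End5 and 12.64, 11.86 and 11.01 in co-cultured cells. It lay at 11.44, 11.20 and 10.81 in single-cultured cells, against 4.99, 5.61 and 6.22 in non-cultured cells. Cultured primary cells were again the high sources, while b.End5 and non-cultured arrays overlapped near the bottom of the scale. The mean was 6.23 higher in co-cultured (SE 0.46) and 5.54 higher in single-cultured than in non-cultured cells (SE 0.46). The b.End5 mean differed from the non-cultured mean by 0.05 (SE 0.46) and lay 5.50 below the single-cultured mean.

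The RefSeq promoter table matched 5 of the 7 genes (Tnc, Thbs2, Spp1, Sparc and Postn, build GRCm38.p6). The 250 bases before the outermost start site are shown for Tnc and Spp1 because these genes were high in the same sources. Capitals mark TATAAA on either strand, the only motif found there of the 4 searched.
Tnc, chr4:64047016-64047265, minus strand: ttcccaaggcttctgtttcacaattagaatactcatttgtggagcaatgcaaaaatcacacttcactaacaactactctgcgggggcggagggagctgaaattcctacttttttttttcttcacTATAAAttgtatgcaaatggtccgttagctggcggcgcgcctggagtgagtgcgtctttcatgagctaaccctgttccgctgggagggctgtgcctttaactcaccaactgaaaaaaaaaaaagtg
Spp1, chr5:104434861-104435110, plus strand: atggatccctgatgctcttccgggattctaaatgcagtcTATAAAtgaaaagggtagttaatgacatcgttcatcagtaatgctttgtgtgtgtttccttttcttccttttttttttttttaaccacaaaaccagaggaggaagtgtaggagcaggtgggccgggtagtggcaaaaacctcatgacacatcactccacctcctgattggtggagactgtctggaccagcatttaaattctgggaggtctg

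The TATAAA match began 126 bases before the start in Tnc and 211 bases before it in Spp1. Among 32851 promoter windows of the same length, 12.4% held TATAAA. The AP-1 motif TGANTCA (6.75% of windows), the TEAD motif GGAATG (12.6%) and the CArG box bound by SRF (1.47%), each sought on both strands, were not in the 250 bases before the outermost start of any of the 5 genes. No motif match overlapped another. In Thbs2 a TATAAA match on the opposite strand also began 126 bases before the start, and in the corresponding windows of Sparc and Postn there was none. Tnc, Spp1 and Postn each had a further, inner start in the table. TATAAA began 26 bases before that start in Postn and 205 bases before it in Tnc, and was absent there in Spp1. These matches describe letters in a window and say nothing of which factors act there.

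Microglia and macrophage markers were measured beside Spp1. Of 15 measured markers, 8 were above the no-target level on every b.End5 array, 13 on every co-cultured, 13 on every single-cultured and 14 on every non-cultured array. The log2 of their summed level ranged over 8.62 to 9.55 in b.End5, 13.43 to 14.61 in co-cultured, 13.55 to 14.43 in single-cultured and 10.79 to 11.34 in non-cultured cells. The marker sum and Spp1 were thus high in the same sources. Lyz2 was the highest marker on every co-cultured, single-cultured and non-cultured array and weighed most in the sum there. In limma, 10 markers rose in co-cultured and 9 in single-cultured against non-cultured cells, with Aif1 higher by 4.02 (SE 0.49) and 3.90 (SE 0.49), and 0 fell. Over all genes 9.1% and 7.18% rose in these comparisons. Not all markers followed Aif1. Cx3cr1 lay at 5.30, 5.11 and 5.17 in co-cultured, 4.68, 4.80 and 4.83 in single-cultured and 4.76, 4.67 and 4.97 in non-cultured cells. P2ry12, near the no-target level, lay at 4.74, 3.88 and 3.67 in co-cultured, 4.18, 3.91 and 3.96 in single-cultured and 4.63, 4.19 and 4.81 in non-cultured cells. The defining markers Aif1, Cx3cr1 and C1qa were at or under the no-target level on all 3 arrays of no source, whereas Ptprc, Itgam and P2ry12 were so in b.End5 and Itgam in non-cultured cells. The mean marker level on replicates 1, 2 and 3 was 4.45, 4.81 and 4.52 in b.End5, 8.75, 7.77 and 7.44 in co-cultured, 8.24, 7.42 and 7.49 in single-cultured and 5.80, 5.86 and 6.40 in non-cultured cells. The replicates stood in the order of their Spp1 levels in co-cultured and non-cultured cells, in the opposite order in b.End5 and in neither order in single-cultured cells. The part of these cells in the levels of Spp1, and of Tnc and Thbs1, which were high in the same sources, was not tested.

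Thbs1 encodes thrombospondin 1. Its levels were 4.75, 4.90 and 4.39 in b.End5 and 12.11, 12.04 and 11.44 in co-cultured cells. It lay at 12.02, 11.93 and 12.03 in single-cultured cells, against 5.15, 5.58 and 5.64 in non-cultured cells. The cultured sources overlapped each other and lay far above both others, and b.End5 was lowest, with no overlap with non-cultured cells. The mean was 6.41 higher in co-cultured (SE 0.20) and 6.54 higher in single-cultured than in non-cultured cells (SE 0.20). The b.End5 mean lay 0.78 below the non-cultured mean, which is under 2-fold, and 7.31 below the single-cultured mean, about 159-fold. Of all differences of the 7 genes between b.End5 and single-cultured cells this was the widest.

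Fn1, the fibronectin gene, had another order. It lay at 8.76, 8.86 and 8.83 in b.End5 and at 13.84, 13.45 and 13.50 in co-cultured cells. It lay at 13.86, 13.79 and 13.73 in single-cultured cells, against 13.49, 13.51 and 13.53 in non-cultured cells. The primary cells were high whether cultured or not, the co-cultured arrays overlapped those of the single-cultured and of the non-cultured cells, and b.End5 alone was low. The b.End5 mean was 4.70 below the non-cultured mean (SE 0.12), about 25.9-fold, and 4.98 below the single-cultured mean (SE 0.12), about 31.5-fold. The single-cultured mean exceeded the non-cultured mean by 0.28 (SE 0.12) with no overlap of arrays, and the co-cultured mean exceeded it by 0.09 (SE 0.12). These small differences moved with the scaling: that of single-cultured cells became 0.20 with arrays centred on the median and 0.13 with cyclic loess, and that of co-cultured cells became -0.06 and -0.07. In b.End5 against non-cultured cells, where Fn1 was low, 9 of 14 pericyte and smooth muscle, 4 of 12 fibroblast and 7 of 15 microglia and macrophage markers fell in limma, as did 5 of 11 astrocyte and 2 of 12 endothelial markers, and 1 microglia marker, Tmem119, rose (2.17, SE 0.52). Tmem119 lay at 6.34, 8.53 and 6.04 on b.End5 replicates 1, 2 and 3, so replicate 2 enlarged its rise. Over all genes 9.1% rose and 9.06% fell there. The fibroblast count was 2 without non-cultured replicate 2 or b.End5 replicate 3, the endothelial count was 1 without b.End5 replicate 3, and the part of other cell types in the Fn1 level was not tested.

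Sparc was the steadiest of the 7 genes, with a range of 0.45 over the 12 arrays. It lay at 13.55, 13.64 and 13.58 in b.End5 and at 13.78, 13.89 and 13.84 in co-cultured cells. It lay at 14.00, 13.88 and 13.95 in single-cultured cells, against 13.79, 13.75 and 13.77 in non-cultured cells. The b.End5 arrays were the lowest, without overlap with any other source, yet the fold between the means of b.End5 and single-cultured cells was 1.28. The mean was 0.17 higher in single-cultured (SE 0.09) and 0.07 higher in co-cultured (SE 0.09) than in non-cultured cells. With cyclic loess these became -0.02 and -0.12, so the order of primary sources depends on the scaling. Both Sparc and Fn1 in primary cells lay near the top of the scale, where the highest gene on any array was at 14.5, so a rise there may be understated.

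Thbs2, thrombospondin 2, did not follow Thbs1. Its levels were 7.35, 6.39 and 7.11 in b.End5 and 7.57, 6.52 and 5.30 in co-cultured cells. It lay at 4.57, 5.42 and 4.36 in single-cultured cells, against 6.93, 6.64 and 7.03 in non-cultured cells. Single-cultured cells were the low source, b.End5 and non-cultured arrays overlapped, and the co-cultured arrays were spread over 2.28 log2 units and overlapped every other source. The mean was 2.08 lower in single-cultured than in non-cultured cells (SE 0.48), and b.End5 lay 2.17 above single-cultured cells (SE 0.48). The co-cultured mean was 0.40 below the non-cultured mean (SE 0.48), a sign that turned to 0.18 above it without co-cultured replicate 3.

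Fibroblast markers were measured beside Thbs2. Their summed level, as log2, ranged over 9.55 to 10.38 in b.End5, 11.59 to 13.84 in co-cultured, 10.12 to 10.76 in single-cultured and 9.73 to 10.46 in non-cultured cells. Of 12 markers, 8 were above the no-target level on every b.End5, single-cultured and non-cultured array and 9 on every co-cultured array, with the defining marker Lum at or under it in all 4 sources. Their mean level on replicates 1, 2 and 3 was 4.93, 5.05 and 4.90 in b.End5, 6.73, 6.26 and 5.85 in co-cultured, 5.31, 5.58 and 5.40 in single-cultured and 5.31, 5.59 and 5.85 in non-cultured cells. The replicates stood in the order of their Thbs2 levels in co-cultured cells but not in the other 3 sources, and in b.End5 replicate 2 had the highest marker mean and the lowest Thbs2. In single-cultured against non-cultured cells 2 of 12 rose in limma (1 when any array of either source was left out) and 1 fell. Over all genes 7.18% rose and 5.82% fell there. In co-cultured against single-cultured cells 3 rose, among them the collagens Col1a2 (2.86, SE 0.48) and Col1a1 (2.50, SE 0.51). The count of 3 became 1 without single-cultured replicate 1, single-cultured replicate 3 or co-cultured replicate 2, and 5 without b.End5 replicate 2. Arrays of the defining markers Pdgfra and Dcn overlapped between these sources. Pdgfra lay at 5.38, 5.13 and 4.83 in co-cultured and 4.71, 5.13 and 5.05 in single-cultured cells. Dcn lay at 7.80, 5.92 and 5.84 in co-cultured and 5.70, 6.25 and 5.45 in single-cultured cells. Col1a2 and Col3a1 were the highest markers on co-cultured arrays and weighed most in the sum. In b.End5 against non-cultured cells, where Thbs2 differed by 0.08, 4 markers fell, Col1a2 by 2.44 (SE 0.48), or 2 without non-cultured replicate 2 or b.End5 replicate 3. The part of fibroblasts in the Thbs2 levels was not tested.

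Postn, the periostin gene, was low in every source but for co-cultured replicate 2, where its level of 7.48 was above the array median of 7.36. Its levels were 5.91, 4.61 and 6.54 in b.End5 and 5.62, 7.48 and 5.84 in co-cultured cells. It lay at 4.95, 6.12 and 5.25 in single-cultured cells, against 4.90, 4.75 and 4.95 in non-cultured cells. The non-cultured arrays were close together and those of the other sources were spread more widely. The mean was 1.45 higher in co-cultured than in non-cultured cells (SE 0.54) with no overlap of arrays. It was 0.57 higher in single-cultured (SE 0.54) and 0.82 higher in b.End5 (SE 0.54) than in non-cultured cells, with overlap. Each SE pools the spread within all 4 sources, so it is not the spread of the compared sources alone. Pericyte and smooth muscle markers had a summed level, as log2, of 9.21 to 10.20 in b.End5, 13.65 to 14.26 in co-cultured, 13.20 to 13.74 in single-cultured and 12.43 to 12.98 in non-cultured cells. Of 14 such markers, 8 were above the no-target level on every b.End5, 13 on every co-cultured, 12 on every single-cultured and 13 on every non-cultured array, and the defining marker Rgs5 was at or under it on all 3 b.End5 arrays. The defining marker Pdgfrb lay at 4.44, 4.52 and 4.82 on b.End5 replicates 1, 2 and 3. Kcnj8, also defining, lay there at 9.36, 4.50 and 8.65, against 7.73, 8.27 and 8.21 in non-cultured cells. In co-cultured against non-cultured cells 5 of them rose in limma, or 3 without co-cultured replicate 2, and 4 fell. Over all genes 9.1% rose and 6.2% fell there. Tagln and Acta2 rose most, and Rgs5 and Higd1b fell most. Rgs5 lay at 11.10, 10.78 and 11.29 in non-cultured, 5.07, 5.43 and 5.30 in single-cultured and 6.35, 7.01 and 7.04 in co-cultured cells. Arrays of the other defining markers, Pdgfrb and Kcnj8, overlapped between co-cultured and non-cultured cells. Acta2, at 12.89, 13.35 and 12.36 in co-cultured cells, was the highest marker there and weighed most in the sum. Co-cultured replicate 2, the array with the most Postn, also had the highest mean of these markers (8.32), but non-cultured cells had marker means of 7.47, 7.66 and 8.03 with Postn at its lowest mean, and the part of pericytes in the Postn levels was not tested.

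**Figure D2:**
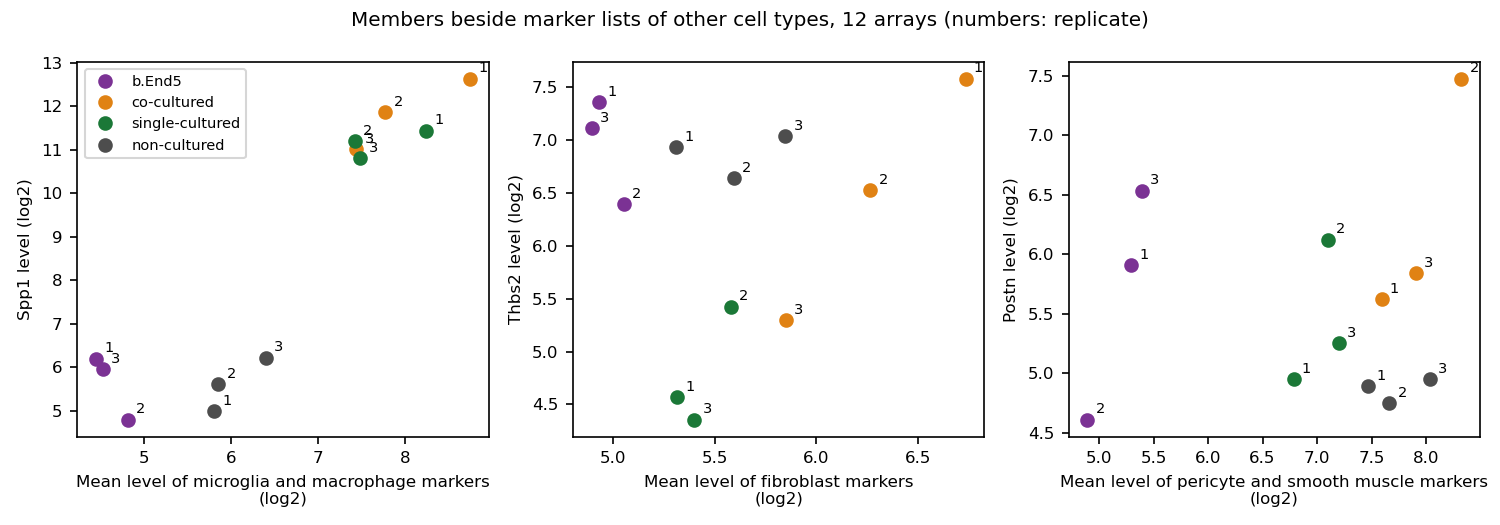
Level of Spp1, Thbs2 and Postn (y axes, log2) against the mean log2 level of 15 microglia and macrophage, 12 fibroblast and 14 pericyte and smooth muscle markers (x axes) on 12 arrays; colours are sources and numbers are replicates. The pairs were chosen after their values were seen. Spp1 and its marker list are both high in the 6 arrays of cultured primary cells, while Thbs2 in b.End5 and non-cultured cells lies above 6.3 at fibroblast marker means under 5.9.

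The threshold applied to all genes was a difference of 2-fold or more with limma's adjusted p below 0.05. The counts of members past it rest on the same values that chose the genes and are printed beside the share of all genes for scale only. The shares given here for each comparison are also the background for the counts called in the lists of other genes. In single-cultured against non-cultured cells 3 were called higher (Tnc, Thbs1 and Spp1) and 1 lower (Thbs2), where 13% of all genes were called, 7.18% higher and 5.82% lower. Their arrays did not overlap for 5 members that were higher and 1 that was lower, as for 45.3% of all genes, 24% higher and 21.2% lower.

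In co-cultured against non-cultured cells Tnc, Thbs1 and Spp1 were called higher and 0 members lower, with 4 members and 6474 of all 15204 genes at an unadjusted p under 0.05, where 15.3% of all genes were called, 9.1% higher and 6.2% lower. The arrays of 4 members were higher without overlap and those of 0 lower, against 51.1% of all genes, 25.7% higher and 25.4% lower. Whether Postn passed the threshold there depended on the setting, which is given for scale only. It was called higher without co-cultured replicate 1 (1.79), b.End5 replicate 2 (1.45) or b.End5 replicate 3 (1.45), and with cyclic loess (1.51), the filter on dim genes (1.45), a fit of only the 2 groups compared (1.45) or array weights (1.68). In b.End5 against non-cultured cells Tnc was called higher and Fn1 lower, where 18.2% of all genes were called, 9.1% higher and 9.06% lower, and Postn was called higher as well without b.End5 replicate 2 (1.36). The arrays did not overlap for 1 member that was higher and 3 that were lower, against 49.2% of all genes, 28.1% higher and 21.1% lower. In b.End5 against single-cultured cells 4 were called lower (Tnc, Thbs1, Spp1 and Fn1) and 1 higher (Thbs2), where 14.1% of all genes were called, 7.82% lower and 6.25% higher. The arrays did not overlap for 5 members that were lower and 1 that was higher, against 41.5% of all genes, 18.2% lower and 23.2% higher. The comparisons with non-cultured cells share those 3 arrays, and those with single-cultured cells share theirs.

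**Figure D3:**
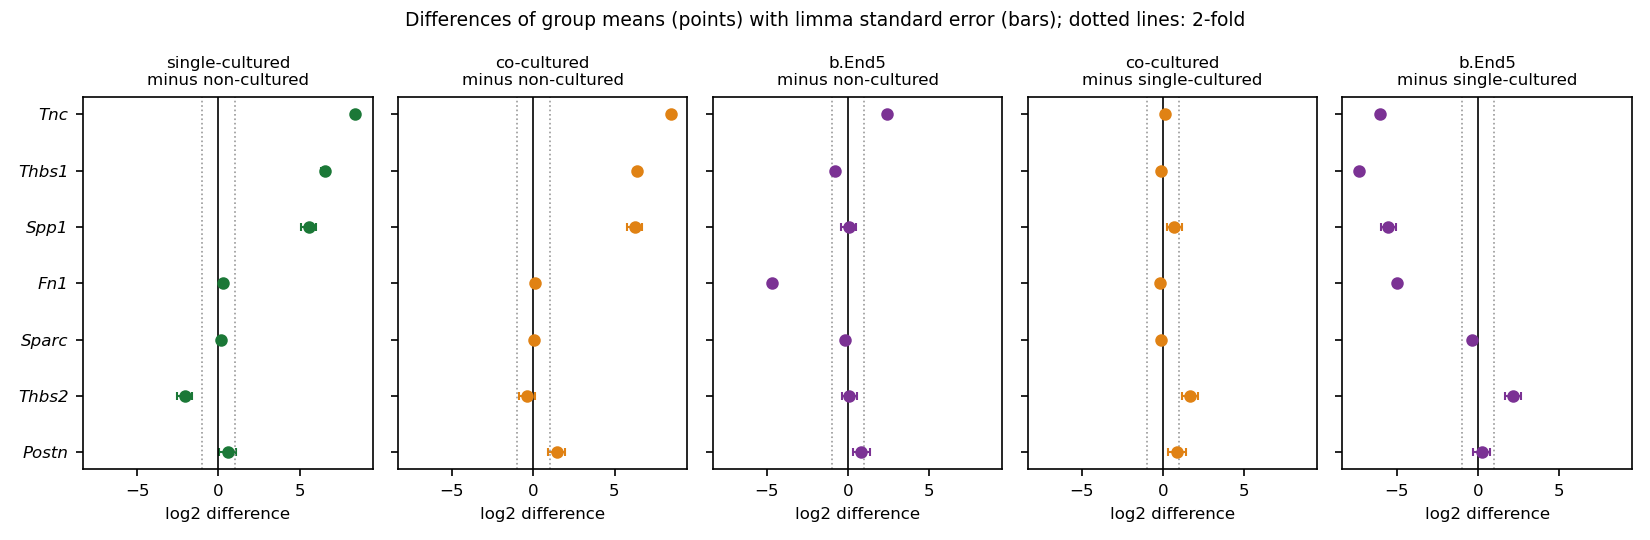
Differences of group means for the 7 genes in 5 comparisons (x axis, log2, first source minus second), with limma's standard error as bars; dotted lines mark 2-fold. Tnc, Thbs1 and Spp1 lie 5.54 or more above 0 for both cultured sources against non-cultured cells, and all 7 lie within 1.68 of 0 for co-cultured against single-cultured cells.

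Co-cultured and single-cultured cells differed in whether glia were in the lower well. None of the 7 genes was called between them by limma, where 1.19% of all genes were called (0.901% higher and 0.289% lower), and 1 member and 2128 of all 15204 genes had an unadjusted p under 0.05. The arrays of all 7 members overlapped, while those of 19.9% of all genes did not, 9.4% being higher and 10.5% lower. Arrays with the same replicate number may be paired here. Each SE in this paragraph is that of limma's fit without pairing, and does not measure the spread of the pairs. The SD of the 3 pair differences was 1.15 for Thbs2, 0.49 for Spp1 and 0.42 for Postn. Thbs2 was higher in co-cultured cells by 3.01, 1.10 and 0.94 in pairs 1, 2 and 3, with a mean of 1.68 (SE 0.48). Without co-cultured replicate 3 it passed limma's threshold, at 2.27, which is given for scale only. Spp1 was higher by 1.19, 0.66 and 0.21, with a mean of 0.69 (SE 0.46), and Postn by 0.67, 1.35 and 0.59, with a mean of 0.87 (SE 0.54). These 3 genes were higher in all 3 pairs, each by an amount that varied from pair to pair. Fn1 was lower in all 3 pairs, by a mean difference of -0.19 (SE 0.12), and Tnc, Thbs1 and Sparc had pairs of both signs, with mean differences of 0.12, -0.13 and -0.10.

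Receptors of the 7 proteins were examined as a list of 21 measured genes. Of these, 11 rose and 0 fell in single-cultured against non-cultured cells in limma, with 17 at an unadjusted p under 0.05 (5669 of 15204 over all genes) and a median difference of 1.17 against -0.0025 over all genes. The lowest difference was 0.02 (Itgb6). The largest rises were the alpha8 integrin Itga8 (5.04, SE 0.35, adjusted p = 9.4e-07), a receptor for fibronectin, tenascin C and osteopontin, and Cd44 (4.13, SE 0.51, adjusted p = 8.6e-05), which binds osteopontin. The fibronectin receptor subunit Itga5 (1.78), the vitronectin receptor subunits Itgav (2.16) and Itgb3 (2.18), the syndecan Sdc4 (2.23) and the thrombospondin receptor Cd36 (2.66) rose too, and the common subunit Itgb1 did not pass (0.66). In co-cultured against non-cultured cells 13 rose and 0 fell in limma, with 16 at an unadjusted p under 0.05 (6474 of 15204 over all genes) and a median of 1.32 against -0.04, led by Cd44 (4.17, SE 0.51) and Itga8 (3.08, SE 0.35). The lowest difference there was -0.01 (Itgb6). Some of these receptors, Cd44 and Cd36 among them, are also known from macrophages, whose markers rose in the same comparisons as given above, and the part of such cells in the receptor levels was not tested.

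Receptors moved in both directions in b.End5 against non-cultured cells. Of the 21 genes, 6 rose and 4 fell, with a median of 0.33 against 0.08 over all genes. Itga8 rose by 6.27 (SE 0.35) and the tenascin C and osteopontin receptor subunit Itga9 by 4.98 (SE 0.24). The fibronectin receptor subunit Itga4 fell by 4.13 (SE 0.16), and the endocytic receptor Lrp1, which clears thrombospondins, was at least 3.49-fold lower, being at or under the no-target level in b.End5. Against single-cultured cells 4 receptors rose and 8 fell in b.End5, with Itga4 lower by a difference of -4.16 (SE 0.16) and Cd36 at least 11.3-fold lower, while Itga9 (3.81, SE 0.24) and Sdc1 (2.63, SE 0.24) rose. Cd44 fell as well, at 3.44, 5.46 and 3.69 on b.End5 replicates 1, 2 and 3, of which only replicate 2 was above the no-target level, so its fitted difference is not exact. Between co-cultured and single-cultured cells Itga8 alone was called, at -1.96 (SE 0.35). It was not called without single-cultured replicate 1 (-1.99), and 2 receptors were called higher without co-cultured replicate 3.

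Of 19 other matricellular genes measured, 3 rose and 2 fell in single-cultured against non-cultured cells, with a median of -0.03. Over all genes 7.18% rose and 5.82% fell there. Tgfbi, a TGF-beta-induced integrin ligand, rose by 3.58 (SE 0.30), the SPARC relative Smoc2 by 2.74 (SE 0.23) and the CCN protein Ccn2 by 1.64, while the SPARC-family proteoglycan Spock2 fell by 6.75 (SE 0.21, adjusted p = 2.8e-09). Ccn3 fell by 1.32 (SE 0.30), which was not called without single-cultured replicate 1 (-0.98). In co-cultured against non-cultured cells 5 rose and 2 fell, with Tgfbi at 4.38 (SE 0.30) and Spock2 at -6.96 (SE 0.21), and 4 fell without b.End5 replicate 2. The thrombospondins Thbs3 and Thbs4 were not called in any of the 5 comparisons, with differences of 0.29 and 0.17 between single-cultured and non-cultured cells. Both were dim, so the lack of a call says little about them. Thbs4 was at or under the highest bacterial control on every array, and Thbs3 on every non-cultured and b.End5 array.

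In b.End5 against non-cultured cells 2 of the 19 other matricellular genes rose and 8 fell, with a median of -0.06. Over all genes 9.1% rose and 9.06% fell there. The SPARC-like protein Sparcl1 was at 4.37, 4.08 and 4.41 in b.End5, against 12.02, 11.47 and 11.91 in non-cultured cells, a difference of -7.51 (SE 0.24, adjusted p = 6.6e-10 in limma). It was under the highest bacterial control on all 3 b.End5 arrays, and at least 133-fold lower measured against that level. Ccn1, an integrin ligand, was at 6.17, 6.55 and 5.99 in b.End5, against 12.68, 12.72 and 12.71 in non-cultured cells. Its relative Ccn2 was at 8.44, 8.80 and 8.07 in b.End5, against 11.66, 12.16 and 11.86 in non-cultured cells. All 3 genes thus lay far below non-cultured cells with no overlap, whereas Sparc, the relative of Sparcl1, differed by -0.18. Ccn3 rose by 2.40 (SE 0.30) and the elastic fibre protein Fbln5 by 1.85 (SE 0.48). Fbln5 lay at 7.46, 9.63 and 7.58 on b.End5 replicates 1, 2 and 3, against 5.91, 6.34 and 6.88 in non-cultured cells. Replicate 2 thus enlarged its rise. Against single-cultured cells 3 rose and 7 fell, with Sparcl1 at -7.48 (SE 0.24), Ccn1 at -5.95 (SE 0.17) and Ccn3 at 3.72 (SE 0.30). Measured against the highest bacterial control, Sparcl1 was at least 130-fold lower there. No other matricellular gene was called between co-cultured and single-cultured cells, with 6 of 19 at an unadjusted p under 0.05 against 2128 of 15204 over all genes, although 1 rose without co-cultured replicate 3 and 1 fell without single-cultured replicate 1.

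**Figure D4:**
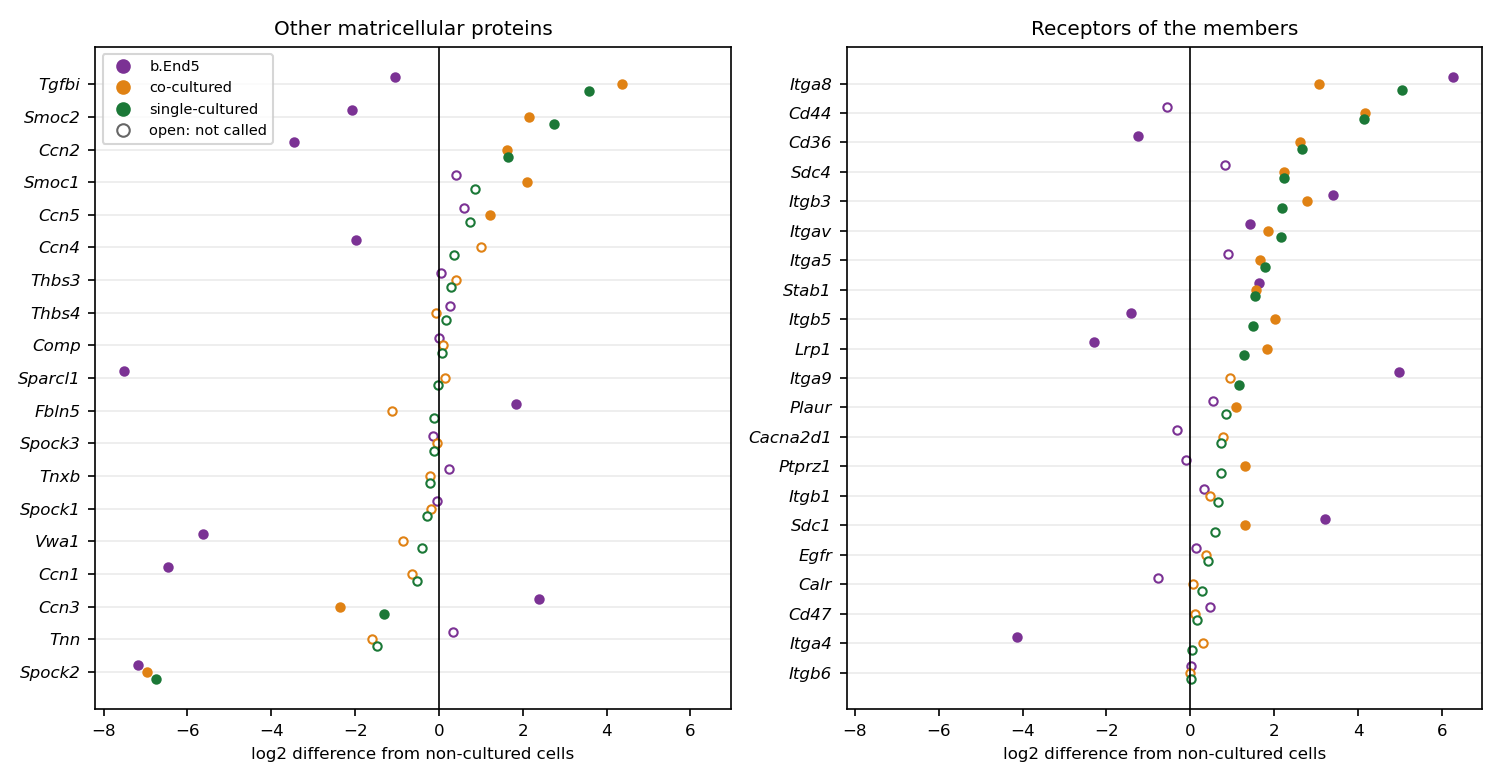
Difference of each source from non-cultured cells (x axis, log2) for 19 other matricellular genes and 21 receptors; filled points were called by limma and open points were not. Receptors of cultured primary cells lie at -0.01 or above, up to 5.04, and in b.End5 Sparcl1, Ccn1 and Itga4 lie far below 0.

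Genes that build on or cross-link the fibronectin matrix were a list of 20 genes. Of these 9 rose and 2 fell in single-cultured against non-cultured cells, with a median of 0.97, where 7.18% of all genes rose and 5.82% fell. The latent TGF-beta binding protein Ltbp2 rose by 5.52 (SE 0.57), the collagen and elastin cross-linking enzyme Loxl2 by 3.54 (SE 0.20), and its relatives Loxl3, Lox and Loxl1 by 2.72, 2.58 and 1.53. Elastin (Eln) fell by 2.67 (SE 0.16) and the fibulin Fbln2 by 1.31 (SE 0.34), the last not called without non-cultured replicate 3 (-1.23). In co-cultured against non-cultured cells 11 rose and 1 fell, with Ltbp2 at 4.25 (SE 0.57), Loxl2 at 4.17 (SE 0.20) and Eln at -2.99 (SE 0.16), and 2 fell without co-cultured replicate 1. Of the 12 fibroblast markers 3 rose there, the collagens Col1a1 (4.17, SE 0.51), Col3a1 (4.10, SE 0.46) and Col1a2 (3.93, SE 0.48), and 2 fell, Igf2 (-1.76, SE 0.36) and Slc6a13 (-1.06, SE 0.25), with a median of -0.15. The count that fell was 1 without co-cultured replicate 1, non-cultured replicate 2 or non-cultured replicate 3, and the part of fibroblasts in these results was not tested. In b.End5 against non-cultured cells 3 rose, or 1 without non-cultured replicate 1, and 2 fell, Eln by 1.60 (SE 0.16) and Fbln2, which was under the highest bacterial control on 3 of 3 b.End5 arrays and at least 12.4-fold lower measured against that level. Against single-cultured cells 2 rose and 9 fell in b.End5, where Ltbp2 was at least 58.1-fold lower and Lox at least 8.44-fold lower. None was called between co-cultured and single-cultured cells, with 5 of 20 at an unadjusted p under 0.05 against 2128 of 15204 over all genes, and 2 rose without co-cultured replicate 3.

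TGF-beta pathway and target genes, 22 in all, divided. In single-cultured against non-cultured cells 3 rose and 3 fell, with a median of -0.24, where 7.18% of all genes rose and 5.82% fell. Among those that rose were the activin subunit Inhba (6.13, SE 1.31) and the ligand Tgfb3 (3.01), while the binding protein Ltbp4 (-2.75, SE 0.34), the ligand Tgfb2 (-1.46, SE 0.19) and the co-receptor Tgfbr3 (-1.05) fell. Co-cultured cells had the same counts, with Inhba at 6.36 (SE 1.31) and Ltbp4 at -3.99 (SE 0.34). In b.End5 against non-cultured cells 12 fell and 1 rose, with a median of -1.38 against 0.08 over all genes. Ltbp4 fell by 4.52 (SE 0.34), the inhibitory Smad6 was at least 11.3-fold lower, and Id3, a BMP target, and Smad7 fell by 3.20 and 3.19. The rise was the ligand Tgfb1 (1.26, SE 0.33), and 2 genes rose when any 1 b.End5 array was left out. Inhba lay at 5.93, 12.26 and 6.01 on b.End5 replicates 1, 2 and 3, so its level there rests on replicate 2. Each SE pools the spread within all 4 sources, so the SE of Inhba (1.31) includes b.End5 replicate 2 in every comparison. Inhba arrays lay closer together in single-cultured (10.45, 10.80 and 10.91) and non-cultured cells (4.41, 4.31 and 5.06). Against single-cultured cells 0 rose and 10 fell in b.End5, with 16 at an unadjusted p under 0.05 in limma (6117 of 15204 over all genes) and a median of -1.21 against 0.08 over all genes. Between co-cultured and single-cultured cells none was called by limma, with 4 of 22 at an unadjusted p under 0.05 against 2128 of 15204 over all genes, and 1 fell without co-cultured replicate 3.

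Patterns over the 12 arrays were compared by Pearson's r, as a description, since the arrays fall into 4 sources of 3 and are not independent. Among the 7 genes, Thbs1 and Spp1 were most alike (r = 0.979), followed by Tnc with Spp1 (0.955) and with Thbs1 (0.952). Thbs2 ran opposite to Sparc (-0.749), Thbs1 (-0.610) and Tnc (-0.585). Among all other genes, the nearest to Tnc were the ankyrin repeat gene Ankrd1 (0.992), Lxn (0.989) and Chst1 (0.986), and among the 3 nearest to Thbs1 were Mfap3l (0.993) and Ctps (0.992). Nearest to Spp1 were podoplanin, Pdpn (0.989), Ptgr1 (0.987) and Nek6 (0.985). Nearest to Fn1 were Zfp874a (0.996), Igfbp7 (0.996) and Ldhb (0.995), all low in b.End5. Nearest to Sparc were the endothelial cadherin Cdh5 (0.954), Smoc2 (0.947) and the basement membrane collagen Col4a2 (0.947). The nearest to Thbs2, Smg5 (0.882), Plac8 (0.882) and Serpinb6b (0.868), and to Postn, Septin5 (0.902), Pla1a (0.864) and Ncl (0.845), were less alike. Ranked by Spearman's rho instead, 1 of the nearest 3 genes of Sparc and 0 of those of the other 6 members were the same.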

How the data were processed

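Values are the deposited log2 levels, 1 per probe set. They came from RMA (background correction, quantile normalisation and probe summary), per the submitters' processing notes. The version, probe-set definition and genome build were not given in the sources used here. Quantile normalisation gives all arrays 1 distribution, and RMA compresses large folds. Per the labels, cDNA was made with a kit for amplifying small RNA inputs (WT-Ovation Pico), which can alter levels.

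Of 21561 RefSeq probe sets, 16537 matched 1 symbol in the GRCm38.p6 RefSeq table, 0 several and 5024 none. The probe set with the highest mean was kept for 987 genes with several, leaving 15204. Each of the 12 columns was assigned from its label. Differences and SE came from limma 3.58.1 in R 4.3.3 (4 group means, 12 arrays, default eBayes), with Benjamini-Hochberg adjustment over all genes and a call at adjusted p under 0.05 and 2-fold. Each SE thus pools the spread within all 4 sources, also those not compared. Where a source had 3 of 3 arrays at or under the no-target level, the fold is a bound. In simulated arrays of 15204 genes with 200 changed, log2 changes of 1.5 were recovered in 87% of cases for single-cultured against non-cultured cells. Tables and figures used Python 3.11.15, pandas 2.3.3 and matplotlib 3.10.9.

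After removal of group means, same-numbered co-cultured and single-cultured arrays correlated at 0.23, 0.13 and 0.23, over 0.1 in all 3 pairs, so they were treated as possibly paired. Each other pair of groups had at least 1 correlation under 0.1. The members, gene lists and tests were chosen with earlier results of these data known. Named genes were the 7 members and, per list and comparison, up to 2 called genes that rose most and 2 that fell most, plus the 3 genes nearest to each member. A gene that this rule selects is not reported here. Other named genes were chosen after their values were seen. Lists of 12 endothelial, 14 pericyte and smooth muscle, 12 fibroblast, 15 microglia and macrophage and 11 astrocyte markers were measured, and 7 housekeeping genes served for scaling. Alternatives were other scalings, the mean of probe sets, a filter on the dimmest 30% of genes, fits of only the groups compared, a replicate block, other eBayes settings, array weights, no fold minimum and leaving out each array.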

Additional observations from a re-analysis of the deposited data

How the results depend on the processing

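With no fold minimum, 4294 genes were called in single-cultured and 5224 in co-cultured against non-cultured cells, 5774 in b.End5 against non-cultured cells, 383 in co-cultured against single-cultured and 4591 in b.End5 against single-cultured cells, and 2 members (Fn1 and Thbs1) were then called lower in b.End5 than in non-cultured cells. With array weights 288 genes were called in co-cultured against single-cultured cells, 1 member (Thbs2) was called higher there, and 2 members (Tnc and Postn) were called higher in b.End5 than in non-cultured cells. Leaving out 1 array gave 1860 to 2066 calls for single-cultured and 2210 to 2397 for co-cultured against non-cultured cells, 2653 to 2842 for b.End5 against non-cultured, 118 to 231 for co-cultured against single-cultured and 2046 to 2294 for b.End5 against single-cultured cells. Members called higher then numbered 1 to 2 for b.End5 against non-cultured (2 without b.End5 replicate 2) and 0 to 1 for co-cultured against single-cultured cells (1 without co-cultured replicate 3), where 118 genes were called without single-cultured replicate 1. With the replicate block, 174 genes were called in co-cultured against single-cultured cells, against 181, and the block changed no count of members called and no count of genes by over 1.5 times. No called difference of a member changed sign under any alternative run, while 14 member values, all of Fn1 or Sparc under another scaling, moved by over 1 SD and 756 did not. Under the filter on dim genes 7 of 7 members remained. The cause of these changes was not tested. Median centring shifts all genes by at most 0.19 (log2). Signal near the no-target level limits Postn in every source, co-cultured replicate 2 (7.48) excepted. It also limits Thbs2 in single-cultured cells, Thbs1 and Spp1 in b.End5 and non-cultured cells, and Tnc in non-cultured cells.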

Other observations

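Astrocyte markers were measured in all 4 sources, because the cells in the lower well were glia, whose kind is not given here. Of 11 markers, 8 were above the no-target level on every b.End5 array and 9 on every array of the co-cultured, single-cultured and non-cultured cells. The log2 of their sum ranged over 11.17 to 12.30 in b.End5, 12.27 to 12.47 in co-cultured, 12.13 to 12.23 in single-cultured and 12.26 to 12.43 in non-cultured cells. Gja1, a gap junction gene, was high on all 12 arrays, at 12.01, 10.84 and 11.94 in b.End5, against 11.74, 11.87 and 11.84 in non-cultured cells. It was the highest of the 11 markers on every array and weighed most in the sum, which therefore says little about the other markers. Against non-cultured cells 5 of the 11 fell in b.End5, 4 in co-cultured and 6 in single-cultured cells (2 without non-cultured replicate 3), and 0 rose in limma. Over all genes 9.06% fell in b.End5, 6.2% in co-cultured and 5.82% in single-cultured cells. Sox9 fell in all 3, by 1.14 (SE 0.42) in b.End5, 2.97 (SE 0.42) in co-cultured and 3.23 (SE 0.42) in single-cultured cells. Its levels were 8.75, 6.75 and 8.79 on b.End5 replicates 1, 2 and 3, against 9.32, 9.17 and 9.23 in non-cultured cells. The fall in b.End5 thus rests mostly on replicate 2. Between co-cultured and single-cultured cells none of the 11 was called by limma, and the largest difference was Ndrg2 (0.76, SE 0.39). The defining marker Aqp4 was at or under the no-target level on all 3 b.End5 and all 3 non-cultured arrays, and Gfap was not analysed here.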
